A study of Mus musculus with 4 samples.

Results

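The solute carriers are a large group of membrane transporters. The set described here is every solute carrier gene, apart from 4, with a listed C-to-U site in mouse cortex. Such sites are used as a read-out of nearby RNA methylation, and a listed site is not in itself proof of it. Members were the rows of the deposited site list whose gene symbol began with Slc and a digit, leaving out Slc1a2 and Slc1a3 (the glial glutamate carriers), Slc17a7 (a vesicular glutamate carrier) and Slc2a1 (the glucose carrier of brain endothelium). This gave 66 of the 4206 listed genes and 442 of the 28412 listed sites. Slc9a3r2 met the rule by its symbol, although its protein is a scaffold that binds transporters and not a carrier.

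The sites came from scDART-seq of dissociated cortex, which uses the cytidine deaminase APOBEC1 joined to the YTH domain, a binder of N6-methyladenosine (m6A). The fusion turns cytosines beside m6A into uracil, and these are read as C-to-T changes. Mice were 6 to 8 weeks old when they first received tamoxifen, which was given at 20 mg/kg every 24 h on 5 days, and the cortex was taken 7 days after the last dose. The 4 samples were sublibraries of 1 pool, replicates 1 and 2 together, in which cells with APOBEC1-YTH were mixed with cells with APOBEC1-YTHmut, a form whose YTH domain is mutated. All mice had received tamoxifen. The sources used here do not state the promoter or cell type that drove the fusion, or the number of animals. Samples, genotypes and cell types are not told apart in the single site list, so that no value below has a replicate, an error between animals or a test, and a difference between genes is a description of this 1 list. For every site the list gives a whole number of 3 or more, called the site count here. What it counts, and the read depth behind it, the sources used here do not state.

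Solute carriers move ions, amino acids, transmitters, sugars, metals and metabolites across membranes. In cortex, neurons rely on them to clear calcium and chloride and to load vesicles, astrocytes to take up transmitters and exchange bicarbonate and cystine, and the vessel wall to pass nutrients and hormones. m6A is laid down mainly in the motif DRACH (D is A, G or T, R is a purine, H is A, C or T, and the A is the methylated base), often near the stop codon and in the 3' UTR, and is known to affect the stability, transport and translation of an mRNA.

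The sequences around 11 member sites are given first, because they show the base that was edited and the motif beside it. They are the highest site of each of the 4 neuronal members with the most sites and of 3 glial members, and the 4 highest of the other member sites. Each line holds 21 bases of a GENCODE M21 transcript, written 5′ to 3′, with the edited C in the middle. The mm10 coordinates run 10 bases to each side of the edited C. The capitals mark the purine, the A and the edited C.
Slc24a2 (chr4:86985360-86985380, minus strand): agaccttgAACactgacaggt
Slc8a1 (chr17:81387881-81387901, minus strand): tagctctgAACtgtgattagc
Slc6a17 (chr3:107471021-107471041, minus strand): tcccagcaGACtccctaccta
Slc12a5 (chr2:164999237-164999257, plus strand): cagcccacAACaaaaccccca
Slc4a4 (chr5:89235748-89235768, plus strand): aaaatcaaGACaatagtgtcc
Slc39a12 (chr2:14405021-14405041, plus strand): ggaaacaaAACacagaggaac
Slc1a4 (chr11:20302211-20302231, minus strand): tgccttaaAACgtagcacagc
Slc39a10 (chr1:46809687-46809707, minus strand): tcatataaAACactagtcttt
Slc25a3 (chr10:91116811-91116831, minus strand): gagtttcaAACttaatgctaa
Slc39a10 (chr1:46809663-46809683, minus strand): ttagtagaAACttctgttgct
Slc38a1 (chr15:96576343-96576363, minus strand): tcctaactGACgctccgctca

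All of these sites lay in a 3' UTR of the GENCODE M21 annotation except that of Slc39a12, which lay in the coding sequence. At the middle C, DRACH was not met for Slc12a5, where a C stands before the purine. Nor was it met for Slc38a1 and Slc1a4, where a G follows the edited C. Inside the windows of Slc12a5 and Slc38a1, a neighbouring listed C did meet DRACH, with counts of 25 and 12.

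Carriers were listed about as often as other genes. Of 367 annotated protein-coding Slc symbols apart from the 4 left out, 66 had a site, or 18.0% (Wilson 95% interval 14.4 to 22.2), beside 17.4% of all 21924 annotated protein-coding genes. This and every later interval covers counting error only and treats the genes or sites as independent. A member held a median of 2 sites, the median of all listed genes, with a range of 1 to 76. There were 24 members with 1 site, 16 with 2 to 4, 16 with 5 to 9 and 10 with 10 or more. The last are 15.2% of members, beside 16.9% of all listed genes. Sites were concentrated in few genes: the 3 members with the most sites held 32.8% of them and the top 15 held 71.7%. Slc24a2, Slc8a1 and Slc39a10 led with 76, 43 and 26 sites.

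**Figure D1:**
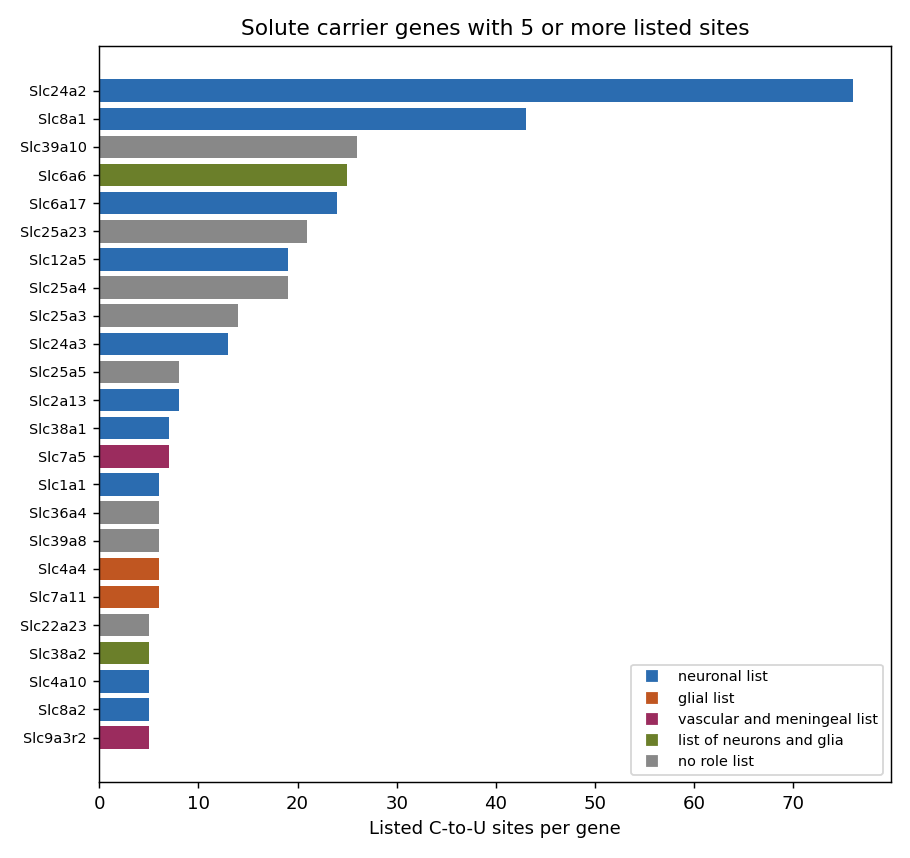
Number of listed sites (x axis) in 24 members with 5 sites or more (y axis, 1 bar per gene shown), coloured by known role. Slc24a2, with 76 sites, and Slc8a1, with 43, stand above the other genes shown, which hold 5 to 26.

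No member had a site count of 100 or more, a level that 3.57% of listed genes reached. The median member site had a count of 5, beside 4 over the whole list, and the highest was 76, reached once in Slc12a5 and once in Slc39a10. A count of 4 or more was found for 278 member sites, or 62.9% (58.3 to 67.3), beside 59.0% of all sites. The single site of 10 members had the lowest listed count, 3. Expression is not part of the list: the number of cells of a type, the RNA per cell and the edited share of a transcript cannot be told apart in these values, and a gene with no site may have been unexpressed, thinly read, unedited or filtered.

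As a check of the tissue, listed sites were found in 5 of 6 fixed markers of excitatory neurons, 2 of 6 of inhibitory neurons, 4 of 6 of astrocytes, 6 of 6 of oligodendrocytes, 2 of 6 of microglia and 5 of 6 of endothelial and mural cells. The share of all protein-coding genes with a site was 17.4%, and no intervals were taken for these markers. Those with no site were Tbr1, Gad1, Pvalb, Vip, Lhx6, Gfap, Aldh1l1, Vtn, P2ry12, Tmem119, C1qa and Aif1. The microglial markers held at most 1 site each.

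Among carriers known from neurons, 11 of 26 had a site (42.3%, 25.5 to 61.1), beside 17.4% of all protein-coding genes. They held 207 sites in all, with a median of 8 per listed gene. The calcium exchangers of the plasma membrane held the most. Slc24a2, a potassium-dependent sodium/calcium exchanger of neurons, had 76 sites with counts of 3 to 54 and a median of 5. Of these, 63 lay in its 3' UTR of 8220 nt, spread from 237 to 8214 nt after the stop codon, and 13 in the coding sequence. Just 4 lay in the first 400 nt after the stop codon. The highest, shown above, lay 5974 nt after the stop codon, and the next, with a count of 45, at 5148 nt.

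Slc8a1, the sodium/calcium exchanger NCX1, had 43 sites, 38 of them in the longest 3' UTR among the members with 5 sites or more (15586 nt). Its 3' UTR sites lay in separate stretches. There were 18 between 525 and 1199 nt, with counts up to 55, 9 between 9855 and 10212 nt, with counts up to 29, and 7 between 14563 and 14751 nt, with counts up to 21. None lay within 400 nt of the stop codon. Related exchangers held fewer: Slc24a3 had 13 sites with counts of at most 9, Slc8a2, the NCX2 gene, had 5 with counts of at most 8, and Slc24a4, which is in no role list, had 4 with counts of 3 to 7. In the Slc24 family 3 of 5 annotated genes had a site, and in the Slc8 family 2 of 4, beside 17.4% of all protein-coding genes. No intervals were taken for families this small. Slc24a2 held 76 of the 93 sites of the Slc24 family, and Slc8a1 held 43 of the 48 of the Slc8 family.

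Slc12a5 encodes KCC2, the potassium/chloride cotransporter that keeps neuronal chloride low so that GABA can inhibit. It had 19 sites, 12 of them with a count of 3. The signal was narrow: sites at 1766, 1776 and 1781 nt after the stop codon had counts of 21, 76 and 25, and the middle one, in the context CAACA, tied for the highest count of the set.

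Slc6a17, a neutral amino acid carrier of synaptic vesicles (NTT4), had 24 sites, 20 in the 3' UTR and 4 in the coding sequence, at -166 to -50 nt from the stop codon. Of the 3' UTR sites, 11 lay within 400 nt of the stop codon. The top count, 23, was reached at 1 nt and again at 150 nt after the stop codon. The edited C of the former directly follows the TGA stop codon, whose G and A are the purine and the A of its motif.
Slc6a17 stop codon (chr3:107471170-107471190, minus strand): agagctgtGACcacagctcca

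**Figure D2:**
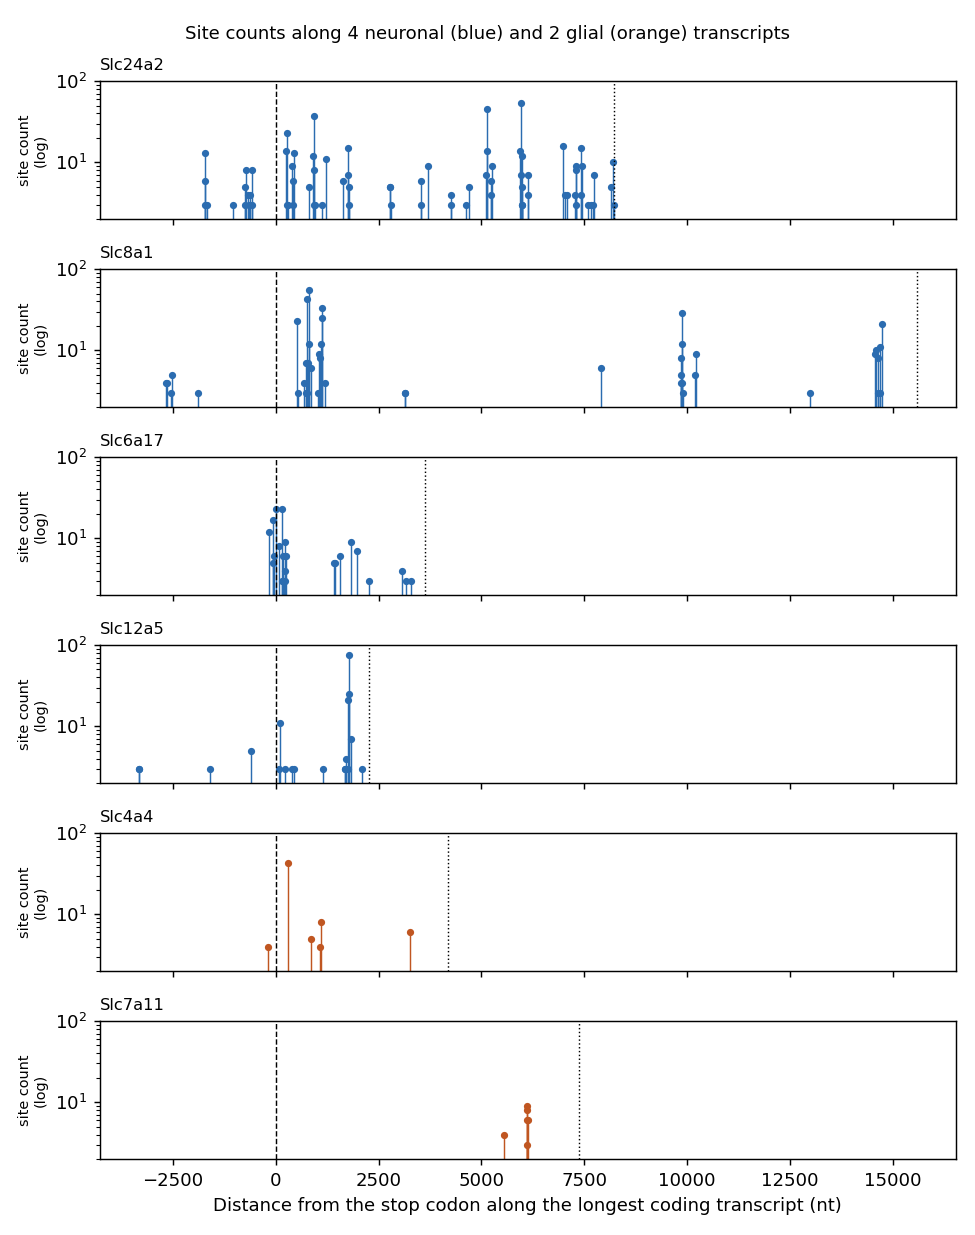
Site count (y axis, log scale) against distance from the stop codon in nt (x axis) for 4 neuronal (blue) and 2 glial (orange) members, 1 point per site, with the stop codon dashed and the end of the 3' UTR dotted. Slc24a2 has sites along its whole 3' UTR of 8220 nt, Slc8a1 in separate stretches, Slc12a5 a peak of 76 at 1776 nt, and Slc7a11 sites only far from the stop codon.

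The other neuronal members had 1 to 8 sites. Slc2a13, the proton/myo-inositol cotransporter, had 8, with counts of 3 to 9, all between 8 and 265 nt of a 3' UTR of 4458 nt. Slc38a1, a glutamine carrier that supplies neurons with the precursor of glutamate and GABA, had 7. Of these, 5 lay in the 3' UTR, between 296 and 358 nt of 5293 nt, and the highest had a count of 51. Slc1a1, the neuronal glutamate carrier, which the rule keeps, had 6 sites between 74 and 131 nt after the stop codon, with counts of 3 to 10. Slc4a10, a sodium-dependent bicarbonate carrier, had 5 with counts of 3 to 7. Slc17a6, the vesicular glutamate carrier VGLUT2, had 1, with a count of 3, at 87 nt.

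The 15 neuronal carriers with no listed site were mostly those of particular transmitter systems. They included the vesicular carriers of GABA and glycine (Slc32a1), monoamines (Slc18a2), acetylcholine (Slc18a3) and zinc (Slc30a3), the VGLUT3 gene Slc17a8, the plasma membrane carriers of noradrenaline, dopamine and serotonin (Slc6a2, Slc6a3 and Slc6a4), and the choline carrier Slc5a7. The rest were Slc6a5, Slc6a7, Slc6a15, Slc1a6, Slc2a3 and Slc16a7. Cell bodies of the monoamine systems lie outside the cortex, which concerns only Slc18a2, Slc6a2, Slc6a3 and Slc6a4 here, and its part was not tested. Unlisted neuronal carriers were shorter, with a median exon length of 4720 nt against 8257 nt for the listed ones. The part of length in these counts was not tested.

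Carriers known from glia had sites in 6 of 18 genes (33.3%, 16.3 to 56.2), beside 17.4% of all protein-coding genes. They held 21 sites in all, with a median of 3.5 per listed gene. All 6 were astrocyte carriers, out of 12. None of the 4 oligodendrocyte carriers (Slc45a3, Slc5a11, Slc44a1 and Slc12a2) and neither of the 2 microglial ones (Slc2a5 and Slc11a1) had a site, although all 6 oligodendrocyte markers did.

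Slc4a4, the sodium/bicarbonate cotransporter NBCe1, had 6 sites. Their counts were 4 in the coding sequence and 43, 5, 4, 8 and 6 at 288, 849, 1078, 1099 and 3271 nt after the stop codon. The site with 43 was the highest of the glial members. Slc7a11, the cystine/glutamate exchanger xCT, also had 6 sites. Of these, 5 lay within 21 bases of a simple repeat, with counts of 6, 8, 9, 6 and 3. The same repeat measure (a window of 21 bases that matches itself shifted by up to 6 bases at 90% of positions or more) was met by 5 sites of Slc39a8, a zinc and manganese importer, with counts of 3, 6, 9, 9 and 3.
Slc39a8 (chr3:135887357-135887377, plus strand): acaacaacAACaacaacaaca

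These 10 sites in 2 members are 2.28% of the member windows that could be read, beside 0.686% of all listed windows. Whether the repeats took part in the calling of these sites was not tested.

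The remaining glial members had low counts. Slc39a12, a zinc importer, had 4 sites, all in the coding sequence, with counts of 3, 3, 4 and 3. Slc1a4, a carrier of serine and other neutral amino acids, had 3, with counts of 3, 6 and 5. Slc6a11, the GABA carrier GAT-3, had 1 with a count of 7, and Slc15a2, a peptide carrier, had 1 with a count of 5. Astrocyte carriers with no listed site were the glycine carrier Slc6a9, Slc7a10, the glutamine exporter Slc38a3, Slc25a18, Slc13a3 and the urea carrier Slc14a1.

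Set side by side, neuronal and glial carriers were listed in shares whose intervals overlap. The glial interval includes the 17.4% of all protein-coding genes and the neuronal one does not. The lists were made with earlier results of these data known, so that neither share is a test against it. The median number of sites per listed gene was 8 in the neuronal list and 3.5 in the glial list, beside 2 over all listed genes. The glial median, over 6 genes, was 1.5 with counts of 4 or more and 2 without the repeat windows or with neighbours merged. Per kb of exon the medians were 0.956, 0.493 and 0.456 sites. Site counts differed less: the median was 5 in both lists, and the median of each gene's highest count was 10 for neuronal carriers, 6.5 for glial carriers and 7 over all listed genes. A gene with more sites tends to have a larger highest count. The 3' UTR held 85.0% (79.5 to 89.2) of neuronal and 76.2% (54.9 to 89.4) of glial sites. DRACH was met by 56.0% (49.2 to 62.6) of neuronal and 66.7% (45.4 to 82.8) of glial sites. Of the 14 glial sites that met it, 5 were the repeat sites of Slc7a11.

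The neuronal excess in total sites, 207 against 21, depends on which genes the rule leaves out. Slc1a2 and Slc1a3, both glial, hold 251 and 65 sites, with counts up to 194 and 43. With the 4 left-out genes put back, the neuronal list held 243 sites in 12 genes and the glial list 337 in 8, so that the order of the totals turned. The order of the medians did not, at 10.5 and 5. With unlisted genes counted as 0, the median was 0 in both lists.

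**Figure D3:**
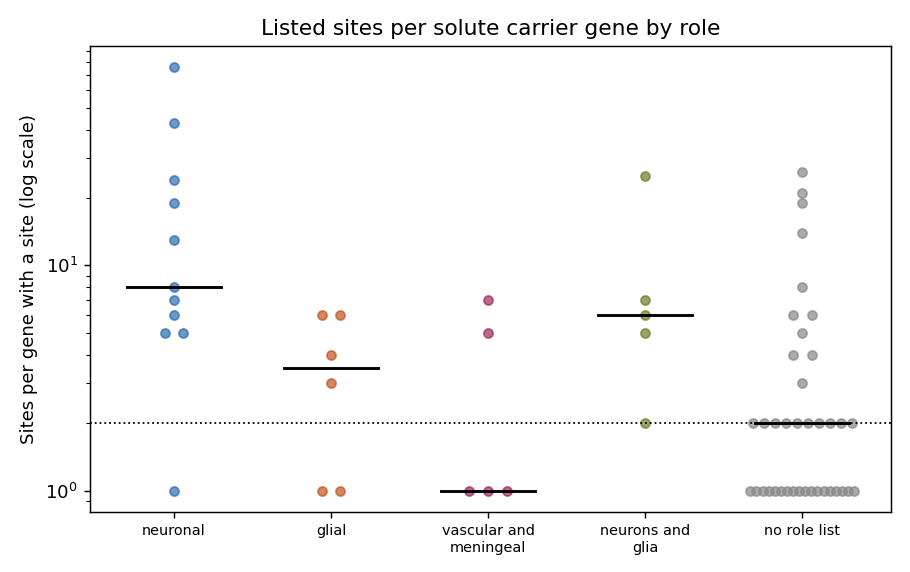
Listed sites per member on a log scale (y axis) by known role (x axis), 1 point per gene with a site, with bars at the group medians and a dotted line at 2, the median of all listed genes. The medians are 8 for neuronal, 3.5 for glial, 1 for vascular and meningeal, 6 for carriers of neurons and glia, and 2 for genes in no role list.

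Carriers found in both neurons and glia were listed in 5 of 7 cases (71.4%, 35.9 to 91.8, beside 17.4% of all protein-coding genes), with 45 sites. Slc6a6, the taurine carrier, held 25 of them. Its sites fell in the 3' UTR in 24 cases, 14 of them between 3241 and 3979 nt of 4009 nt, where the highest count, 39, lay at 3677 nt. Slc38a2, a neutral amino acid carrier, had 5 with counts of 3 to 9, and Slc3a2, the heavy chain of several amino acid exchangers, had 2. Slc8a3 and the creatine carrier Slc6a8 had none.

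Carriers of vessels and meninges were listed in 5 of 14 cases (35.7%, 16.3 to 61.2, an interval that includes 17.4%), with 15 sites. Slc7a5, the large neutral amino acid carrier LAT1 of the blood-brain barrier, had 7, with counts of 3 to 13 between 566 and 870 nt after the stop codon. The adaptor Slc9a3r2 had 5. Slc22a8, Slc16a1 and the iron exporter Slc40a1 had 1 each.

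By substrate, the ion carriers held the most sites, 183 in 15 of 57 annotated genes (26.3%), of which Slc24a2 held 76 and Slc8a1 43. Amino acid and transmitter uptake followed with 104 in 17 of 62 (27.4%). The medians per listed gene were 4 and 5 sites. The share of all protein-coding genes was 17.4%, and no intervals were taken for the shares of these classes. Metal ion carriers were listed in 10 of 32 cases (31.25%), with 47 sites. Slc39a10, a zinc importer, held 26 of these, 15 in the 3' UTR and 11 in the coding sequence. Its strongest sites lay close together: counts of 23, 49, 76 and 60 were found at 204, 211, 256 and 280 nt after the stop codon, and the coding sites reached 14. Slc30a10, a manganese exporter, had a single coding site with a count of 15. Besides Slc39a8 and Slc39a12, described above, the rest were Slc31a1 with 3 sites, Slc30a1 and Slc30a4 with 2 each, and Slc30a5, Slc39a14 and Slc40a1 with 1 each.

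Mitochondrial carriers were listed in 9 of 47 cases (19.15%), near the 17.4% of all protein-coding genes. They held 68 sites, most of them in 4 genes and near the stop codon. Within 400 nt of it were 52 of the 62 that could be placed on a longest coding transcript (83.9%), beside 30.3% of all such listed sites and 35.1% (30.7 to 39.7) of those of the whole set. The 4 carriers with 5 sites or more gave 51 of these 52, and in the other 5 carriers 1 of 6 sites lay so near. Slc25a4, an ADP/ATP carrier of tissues with high energy use, had 19 sites, all between 93 nt before and 282 nt after the stop codon, with the highest, 31, at 79 nt. At 8.07 sites per kb of exon it was the densest of the members with 5 sites or more, above Slc24a2 at 6.22. Slc25a23, a calcium-dependent ATP-Mg/phosphate carrier, had 21, with the highest, 34, at 27 nt. Slc25a3, the phosphate carrier, had 14, with the highest, 68, at 143 nt. Slc25a5, another ADP/ATP carrier, had 8, with the highest, 39, at 180 nt. It has an annotated pseudogene, so that its reads may be shared. The 3' UTRs of Slc25a4, Slc25a3 and Slc25a5 are short, at 666, 390 and 263 nt, which bounds the distance their 3' UTR sites can have. Slc25a44 had 2 sites, and Slc25a11, Slc25a12, Slc25a28 and Slc25a46 had 1 each. The site of Slc25a28, an iron carrier, lay in the coding sequence and had a count of 20.

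**Figure D4:**
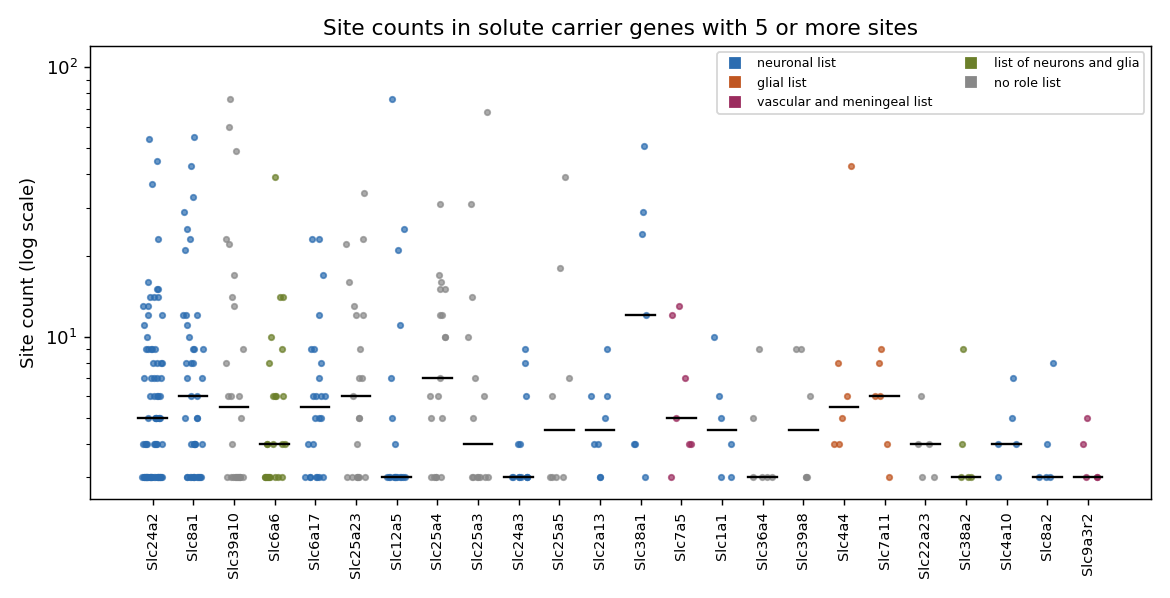
Site count on a log scale (y axis) of every site of 24 members with 5 sites or more (x axis), 1 point per site, with a black bar at each gene's median. Medians lie low while single sites reach 76 in Slc12a5 and Slc39a10 and 68 in Slc25a3.

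Most other classes were listed in smaller shares than the 17.4% of all protein-coding genes, but no intervals were taken for these shares. The rule also left out Slc17a7, a vesicular carrier, and Slc2a1, a sugar carrier, which are listed with 36 and 21 sites. Sugar and monocarboxylate carriers were listed in 5 of 52 cases (9.62%), with 18 sites, of which Slc2a13 held 8 and Slc16a1, Slc16a4 and Slc16a14 1 each. Nucleotide sugar carriers were listed in 2 of 34 (5.88%), Slc35e4 and Slc35f3, organic ion, vitamin and peptide carriers in 4 of 56 (7.14%), led by Slc22a23 with 5 sites and Slc22a17 with 4, and lipid carriers in 1 of 12, the fatty acid carrier Slc27a1, whose single site had a count of 31 in a noncoding exon. Vesicular carriers were listed in 2 of 13 cases (15.4%), near that share, with 3 sites, 2 of them in Slc18b1. Among the amino acid carriers not yet named, Slc36a4 had 6 sites between 98 and 197 nt of a 3' UTR of 4983 nt, Slc7a2 had 2, and Slc38a11, Slc38a6, Slc3a1 and Slc7a14 had 1. Slc20a1, Slc4a2 and Slc9a9 had 2 sites each, and Slc26a10 and Slc4a8 had 1. The site of Slc3a1 also lay in an exon of Prepl on the other strand. The edited C is on the strand of Slc3a1, and the Prepl strand has a G there, so that the C-to-U change can be placed on Slc3a1. Whether counting was strand-aware, the sources used here do not state.

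Member sites lay in the 3' UTR in 359 of 442 cases, or 81.2% (77.3 to 84.6), beside 61.9% of all sites and 66.7% of the sites of protein-coding genes. The coding sequence held 65, noncoding exons 13 and the 5' UTR 4, and the site of Slc35f3 lay outside annotated genes. Genes with many sites weigh most in this share. With only the highest site of each gene taken, 71.2% (59.4 to 80.7) of members had it in the 3' UTR, beside 59.5% (57.9 to 61.0) of protein-coding genes. The median member site lay 410 nt after the stop codon, beside 228 nt over the list. Without Slc24a2 the share of member sites within 400 nt was 41.5% (36.5 to 46.8).

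A long 3' UTR was not filled evenly. Of the 17 members with 5 sites or more and a 3' UTR of at least 2000 nt, 7 had all their 3' UTR sites nearer to the stop codon than to the end, and 4 of these (Slc36a4, Slc2a13, Slc1a1 and Slc38a1) within the first 400 nt. Slc7a11 had all of its sites nearer to the end of its 7364 nt. Across the 66 members the number of sites had a Spearman correlation of 0.26 with 3' UTR length, 0.24 with exon length and 0.66 with the highest count of the gene. The highest count is taken over a gene's own sites and so tends to rise with their number. These are descriptions across genes, which share the list and its depth.

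Motif shares were close to those of the whole list. Of 441 member sites with a readable context, 351 (79.6%) had a purine and an A before the edited C, and 250 (56.7%, 52.0 to 61.2) met DRACH, beside 55.2% of all sites. All 277 member sites with a count of 4 or more had the purine and A, as did all 16687 such sites of the list, and 72.9% met DRACH, beside 72.1% over the list. Because this split is exact over the whole list, it is a trait of the list and not a result about the members. Whether a filter of the site calling made it, the sources used here do not state. Among the sites with a count of 3, 74 of 164 had the purine and A (45.1%, beside 45.8% over the list). The commonest contexts were AAACA with 51 sites and AAACT with 24, followed by CAACA and TGACA with 20 each. Sites also stood in runs about as in the whole list: 85 sites of 14 members (19.2%, beside 20.99% of all listed sites) lay in 23 runs of 3 or more sites at most 10 nt apart, with runs of 6 in Slc24a2, Slc8a1 and Slc25a23.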

How the data were processed

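The authors deposited 1 site list without a header, which gives the position, strand, gene symbol and an unnormalized whole-number count of each site, pooled over the 4 sublibraries. STAR 2.7.5 and the build mm10 are named in the submitters' processing notes. Per the series text, conversions were called with the Bullseye pipeline. The sources used here do not state the filters, or any subtraction of APOBEC1-YTHmut signal. Without a subtraction, editing that does not depend on m6A would also be listed. Sorted neuronal nuclei, described in the series text, were not analysed here.

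Sites were placed on GENCODE M21 by symbol (27873 sites) or else by position (496), and 43 fell in no gene. The end coordinate was taken as the 1-based position. The GENCODE transcript sequence held a C there at 28337 exonic sites and another base at 1. Region was taken in the order 3' UTR, coding, 5' UTR, noncoding exon and intron over all transcripts, and the distance from the stop codon on the longest coding transcript. Placement was checked on simulated transcripts. Python 3.11.15, pandas 2.3.3 and numpy 2.4.6 were used.

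Named were all role-list genes with a site, the 15 members richest in sites, the genes of the 10 highest sites and the leading members of each class. The other members, the stop-codon site of Slc6a17 and the repeat sites were added after their values were seen. The values of some members, and 1 sequence, are not reported here. Members and lists were chosen with earlier results of these data known. Each gene of the role lists stands in 1 list only, and the totals of the lists rest on this placing. Of the related exchangers, Slc8a1 and Slc8a2 were put with neurons and Slc8a3 with neurons and glia. Alternatives changed 1 choice at a time: a count of 4 or more, merged neighbours, other windows, and genes left out or put back. Another took 1 site per gene, the one with the highest count. The member with the most sites was left out of both lists together.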

Additional observations from a re-analysis of the deposited data

How the results depend on the processing

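No paired analysis was possible because samples are not told apart in the list, and leaving out a replicate was not possible for the same reason. The most sites in a member fell from 76 to 48 when sites at most 10 nt apart were merged. The difference between the neuronal and glial medians, 4.5 sites, was 0.463 per kb of exon and 0 with unlisted genes counted as 0. The glial median itself, 3.5, was 1.5 with counts of 4 or more, 2 with neighbours merged and 2 without repeat windows, while the neuronal median, 8, was 6, 6 and 8. The difference in total sites, 186, was 118 with counts of 4 or more, 116 without the member with the most sites of each list, 110 without Slc24a2 alone, and -94 with the 4 left-out genes put back, where the added Slc1a2 and Slc1a3 sites turn the order. The 3' UTR share was 71.2% with 1 site per gene. The DRACH share was 66.2% with the highest site of each gene, 79.6% for the shorter motif of purine, A and C, and 72.9% with counts of 4 or more. Over the whole list too, DRACH was met by 72.1% of sites with counts of 4 or more, beside 31.05% of those with a count of 3. The share near the stop codon was 17.2% within 200 nt and 41.5% without Slc24a2. The median count was 8 when the highest site of each gene was taken. Leaving out Slc24a2, putting the 4 genes back, the motif at counts of 4 or more and leaving out repeat windows were chosen after seeing the data. The unknown depth limits every statement about a gene with no listed site.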

Other observations

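Of the 442 member sites, 90 in 30 genes lacked the purine and A before the edited C, and all had a count of 3, as did all 6297 such sites of the whole list. A site that did have them lay within 10 nt of 65 of these (72.2%), beside 67.7% over the list. It lay upstream in 53 cases (58.9%, beside 43.9% over the list) and downstream in 23 (25.6%, beside 36.4%), some sites having both. In 15 cases (16.7%, beside 10.9%) it lay exactly 2 nt upstream.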
